A study of Schizosaccharomyces pombe with 6 samples.

Results

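Iron uptake and iron regulation in fission yeast were followed here through 6 genes, taken by their identifiers from the 6345 genes of the deposited table. They encode the oxidase *fio1* (SPAC1F7.08) and the permease *fip1* (SPAC1F7.07c) of reductive uptake, the siderophore transporter *str1* (SPBC4F6.09), the ferrichrome synthetase *sib1* (SPAC23G3.02c), and the regulators *fep1* (SPAC23E2.01) and *php4* (SPBC16E9.01c). RNA came from 3 libraries of *mkt1Δ* cells (strain EHB2196) and 3 of wild-type cells (strain EHB7), harvested in exponential growth in YES, a rich medium, at 32°C. Both strains are h+ and carry ade6-210, leu1-32, ura4-D18 and an ade6+ reporter in the outer repeat of centromere 1 (otr1R(Sph1):ade6+), and the *mkt1Δ* strain has NatR in place of *mkt1*. The study asked which RNAs change when Mkt1, a post-transcriptional regulator, is lost.

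The values used are 1 mean log2 CPM per gene, the authors' mean over the 6 libraries of both strains. CPM is the read count of a gene scaled to the total of its library. The *mkt1Δ* and wild-type cells therefore have no separate values here, and no difference between the strains is given for any gene. For the same reason no error over replicates can be attached to a level, the depth of each library is unknown, and the labels could not be checked through *mkt1* itself (SPAC139.01c), which has a pooled mean of 6.83 log2 CPM. All comparisons below are between genes, as descriptions with no test.

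Iron is needed for respiration and for many enzymes but is toxic in excess, so cells tie its uptake to its supply. *S. pombe* takes up iron by a reductive route, in which a cell surface reductase, the oxidase Fio1 and the permease Fip1 work in turn, and by siderophores, small iron chelators such as ferrichrome. The GATA-type factor Fep1 represses the uptake genes when iron is plentiful. When iron is scarce, Php4 joins the CCAAT-binding complex and represses genes for iron-using proteins.

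Of the 6 genes, *fio1*, *str1* and *fip1* were among the lowest mRNAs in these cells. The regulators *fep1* and *php4* were higher but still under the median mRNA. The synthetase gene *sib1* was over the median by CPM and under it when divided by its coding length. *fio1* had a mean of 1.16 log2 CPM (2.23 CPM), above 3.04% of the 5059 mRNAs (95% Wilson interval 2.61% to 3.55%, which covers counting of genes only). *str1* had 2.44 log2 CPM (5.42 CPM) and lay above 4.80% of mRNAs. *fip1* had 3.53 log2 CPM (11.6 CPM) and lay above 7.77% of mRNAs. The mRNAs as a whole had a median of 6.19 log2 CPM, and their 5th and 95th percentiles were 2.53 and 9.57. *fio1* and *str1* thus fell below the 5th percentile and *fip1* above it. By CPM, not divided by length, *fio1* was also below the median of the 1286 ncRNAs that have a value, 2.15 log2 CPM. *str1* was just above that median.

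Of the regulators, *fep1* had 5.53 log2 CPM (46.2 CPM), above 31.3% of mRNAs, and *php4* had 4.67 log2 CPM (25.4 CPM), above 16.1%. *sib1* had 6.82 log2 CPM (113 CPM), above 66.4% of mRNAs, and was the only member over the mRNA median on this scale. In all, 5 of the 6 genes were below the median of mRNAs by CPM.

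CPM grows with the length of an mRNA, so levels were compared between genes after division by coding length, taken from the ASM294v3 annotation. The division takes reads to be spread evenly along an mRNA, which was not tested. Values per length are therefore uncertain for very long mRNAs such as *sib1*. Coding length also leaves out the untranslated ends, so they are uncertain too for genes with short coding lengths or long untranslated ends. The coding length of *sib1* is 14.8 kb, the longest of the 5044 mRNAs with a coding length, whose median is 1.14 kb. The other members have coding lengths of 1.87 kb (*fio1*), 1.19 kb (*fip1*), 1.84 kb (*str1*), 1.69 kb (*fep1*) and 0.885 kb (*php4*).

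Per coding length the 6 genes were all below the mRNA median of 5.94 log2 CPM per kb. The lowest was *fio1*, with 0.26 log2 CPM per kb, above 1.53% of mRNAs (Wilson interval 1.22% to 1.90%). *str1* followed with 1.56 log2 CPM per kb, above 2.95% of mRNAs. *sib1* had 2.94 log2 CPM per kb, above 5.29% of mRNAs, where by CPM alone it had been above 66.4%. *fip1* had 3.28 log2 CPM per kb, above 6.62% of mRNAs. Each of the 4 uptake genes among the members thus exceeded at most 6.62% of mRNAs by this measure. *fep1* and *php4* came next, with 4.77 and 4.84 log2 CPM per kb, above 23.5% and 24.8% of mRNAs.

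**Figure D1:**
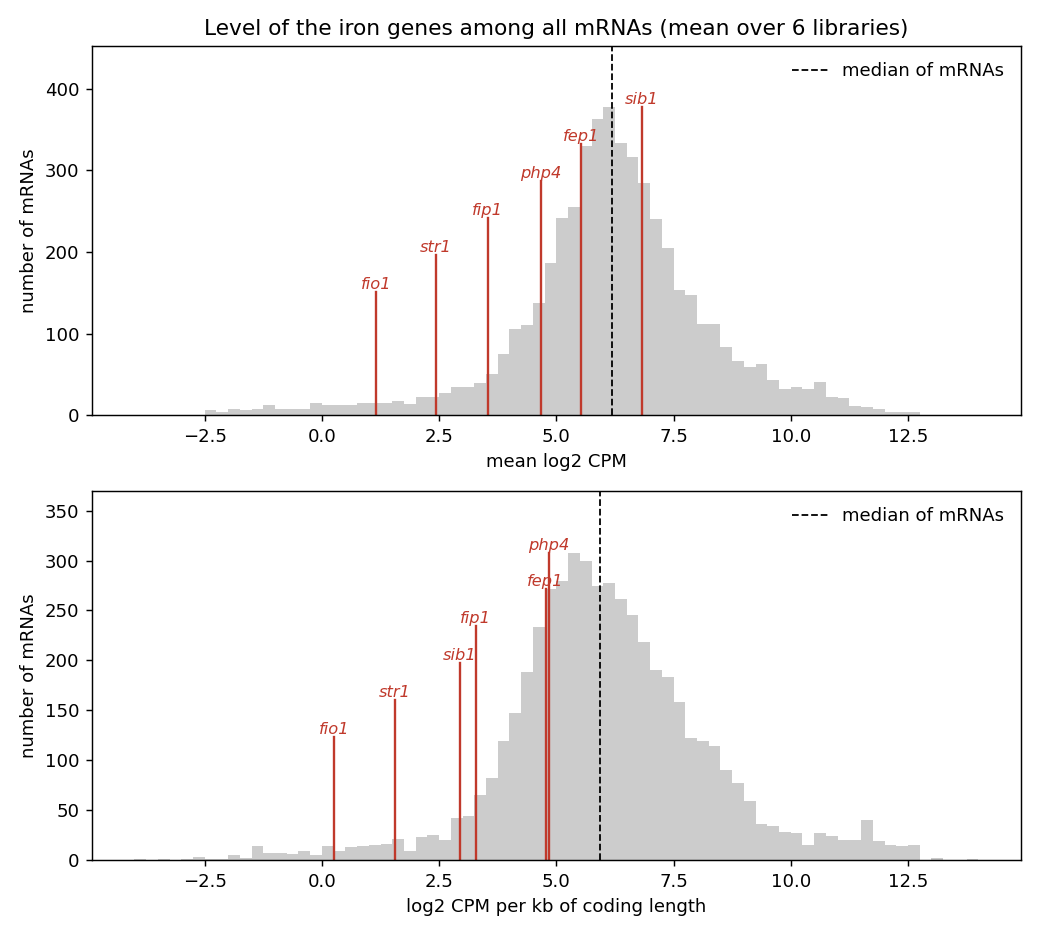
Histograms of the level of all mRNAs with a coding length (grey, number of mRNAs on the y axis), as mean log2 CPM (top) and as log2 CPM per kb of coding length (bottom), with the 6 iron genes in red and the mRNA median dashed; the heights of the red lines carry no value. *sib1* lies right of the median at 6.82 log2 CPM in the top panel and left of it at 2.94 log2 CPM per kb in the bottom panel, while *fio1* is the lowest member in both.

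The oxidase gene *fio1* was the lower end of this order and the regulators were the upper end. *fep1*, just under *php4*, was at 22.8 times the level of *fio1*. Steps of 2.47-fold from *fio1* to *str1*, 2.59-fold from *str1* to *sib1* and 2.81-fold from *fip1* to *fep1* separated the members. The neighbours in this order that lay close were *sib1* and *fip1*, 1.27-fold apart, and *fep1* and *php4*, 1.05-fold apart. With no replicate values these pairs cannot be ordered, and the error of the larger steps is unknown as well. Divided by the annotated mRNA length, untranslated ends included, *sib1* was above *fip1*, with 7.53 against 6.54 CPM per kb, and *php4* above *fep1*, with 16.7 against 13.2 CPM per kb. The mRNA annotated for *fep1* is 3.50 kb, and per mRNA length this gene was above 14.5% of mRNAs.

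The reductive route showed uneven levels of its parts. *frp1*, the cell surface ferric reductase that acts before the oxidase and permease, had 4.54 log2 CPM per kb. The permease gene *fip1* was at 0.418 times the level of *frp1* per coding length, and the oxidase gene *fio1* at 0.0514 times. Fio1 and Fip1 form a complex at the plasma membrane. In RNA, the permease gene had 8.13 times the level of the oxidase gene per coding length and 5.19 times by CPM. These values say nothing on the amounts of the 2 proteins.

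In siderophore synthesis *sib1* again differed from its partners. *sib2*, the ornithine N5-oxygenase that makes the hydroxamate building block, had 7.54 log2 CPM per kb, and *sib3*, an acyltransferase of the same route, had 8.20 log2 CPM per kb. Per coding length *sib1* was at 0.0412 times the level of *sib2* and 0.0260 times that of *sib3*. By CPM alone the ratios were nearer to 1, at 0.470 and 0.383.

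Of the transporters, *str1*, which imports ferrichrome, was at 0.0993 times the level of *str2*, another siderophore transporter, which had 4.89 log2 CPM per kb. It was at 29.0 times the level of *str3*, a heme transporter of the same family, which had -3.30 log2 CPM per kb and a mean of -2.38 log2 CPM. The heme receptor gene *shu1* was low as well, with -1.21 log2 CPM per kb. Both lay near the bottom of the table, *str3* above 0.0198% and *shu1* above 0.615% of mRNAs per coding length, so a ratio to either rests on very low values. The lowest mRNA had a mean of -2.47 log2 CPM, close to that of *str3*, so the ratio to *str3* is taken at the floor of the values.

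Per coding length *fep1* and *php4* were the lowest of the 9 iron regulators listed, while by CPM *fra2*, with 5.34 log2 CPM, was lower than *fep1*. The subunits of the CCAAT-binding complex that Php4 joins had higher levels, with 6.36 log2 CPM per kb for *php2*, 7.19 for *php5* and 8.22 for *php3*. Per coding length *php4* was at 0.348, 0.196 and 0.0959 times the level of *php2*, *php5* and *php3*. By CPM these ratios were 0.308, 0.1395 and 0.244, and *php5* was higher than *php3*, with 7.51 against 6.70 log2 CPM. The co-repressor genes of Fep1, *tup11* and *tup12*, had 5.99 and 7.13 log2 CPM per kb, and *fep1* was at 0.430 and 0.194 times their levels. *grx4*, the monothiol glutaredoxin that binds both Fep1 and Php4, was the highest of the regulators with 8.36 log2 CPM per kb, and *fra2*, a BolA-type protein that partners Grx4, had 7.33. The 7 regulators other than *fep1* and *php4* were all above the mRNA median per coding length. By CPM this did not hold for *fra2*, whose coding length is only 0.252 kb: it was below the mRNA median of 6.19 log2 CPM.

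A list of 39 iron genes in 7 roles places the members in the wider pathway. Of its 10 uptake genes (reductive, siderophore synthesis, siderophore and heme import), 2 were above the mRNA median per coding length, *sib2* and *sib3*, and the median of the 10 was 3.11 log2 CPM per kb. Of 13 genes listed as iron-using enzymes and cytochromes, 12 were above it, with a median of 8.71 log2 CPM per kb. The lowest of these was *glt1*, glutamate synthase, with 5.73, and the highest *cyc1*, cytochrome c, with 10.81 log2 CPM per kb. By CPM *sdh1* was higher than *cyc1*, with 10.02 against 9.20 log2 CPM. Of 5 genes for iron-sulphur cluster assembly, 3 were above the mRNA median, from *isa2* with 4.85 to *isa1* with 8.22 log2 CPM per kb. The vacuolar iron transporter gene *pcl1* had 8.76 log2 CPM per kb and the vacuolar ABC transporter gene *abc3* 3.45. Over the 33 listed genes that are no members, 25 were above the mRNA median per coding length, against 0 of the 6 members. The 33 have another mix of roles: 12 of the 25 were iron-using enzymes and 7 were regulators. Low levels were not particular to the members, as the uptake genes *frp1*, *str2*, *str3* and *shu1* were below the median too. Both the 12 and the 25 include the gene matched as *sdh4* by synonym alone, which is described as Tim18 of a protein import complex.

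**Figure D2:**
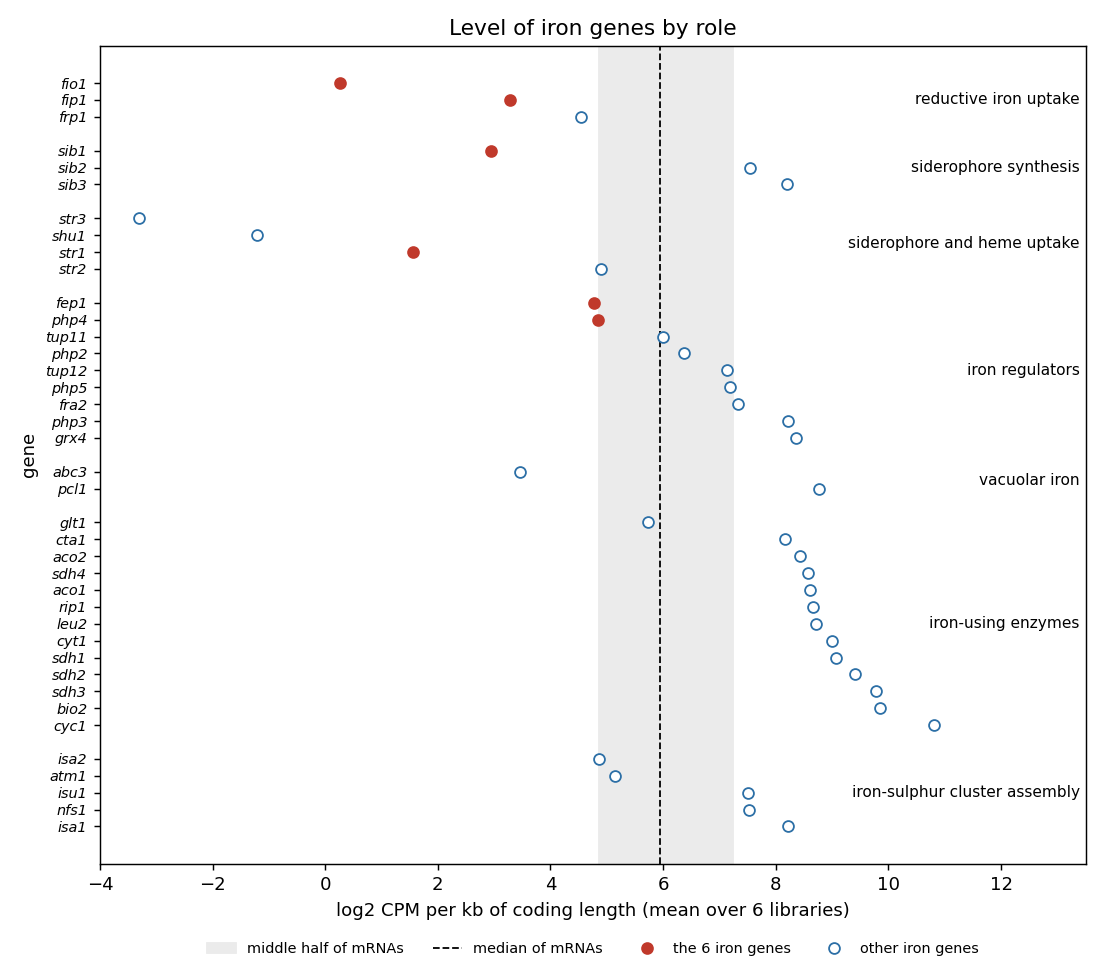
Level of 39 iron genes, one point each, by role, as log2 CPM per kb of coding length averaged over the 6 libraries; the grey band spans the 25th to 75th percentile of mRNAs (4.86 to 7.24) and the dashed line is their median (5.94). The 6 members (red, filled) lie left of the median, from 0.26 for *fio1* to 4.84 for *php4*. Right of it lie 12 of the 13 genes listed as iron-using enzymes, among them *sdh4*, which was matched by synonym and is described as Tim18.

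Position gave a further description that the choice of the genes did not use. In the ASM294v3 annotation *fip1* and *fio1* are next to each other and read in opposite directions away from a shared region. Within 1350 adjacent mRNA pairs of this kind, the median difference of level was 1.68 log2 CPM per kb. *fip1* and *fio1* differed by 3.02, more than 73.8% of the pairs (Wilson interval 71.4% to 76.1%, which covers counting of pairs only). This was under the 75th percentile of the pairs, 3.16. With no length term *fip1* and *fio1* differed by 2.38 log2 CPM, more than 66.3% of the pairs. The gene on the other side of *fip1*, *hsp3105*, was also low, with 1.12 log2 CPM per kb, whereas *dal2*, which encodes an allantoicase and follows *fio1*, had 5.82.

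*sib1* and *sib2* are also adjacent and read away from each other, so that enzymes of the same siderophore route lie side by side. Their levels differed by 4.60 log2 CPM per kb, more than 88.2% of the pairs, but by 1.09 log2 CPM with no length term, more than 37.6%. *str1* has the mitochondrial ribosomal protein gene *mrpl39* as its divergent neighbour, with 8.06 log2 CPM per kb, a difference of 6.50 that exceeded 95.3% of the pairs. With no length term *mrpl39* and *str1* differed by 3.02 log2 CPM, more than 75.9% of the pairs. The pairs of *sib1* and *str1* were picked after their values were seen. *fep1* lies between *mre11*, a DNA repair nuclease gene, and *lsd2*, a histone demethylase gene, with 5.36 and 4.41 log2 CPM per kb, both read in its own direction. *php4* lies between *fmo1* and SPBC16E9.02c, with 6.76 and 7.78 log2 CPM per kb, and was lower than both.

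**Figure D3:**
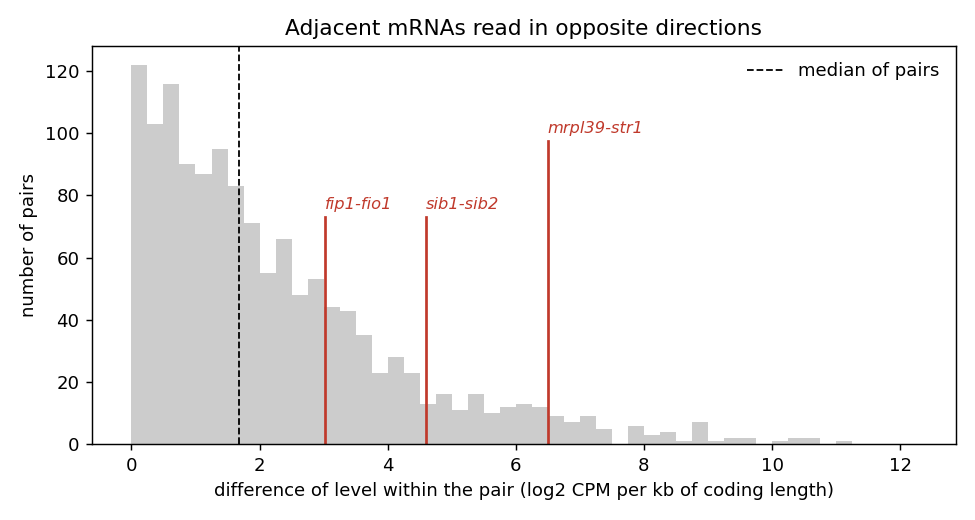
Histogram of the absolute difference of level (log2 CPM per kb of coding length, x axis) within 1350 pairs of adjacent mRNAs read away from each other (number of pairs, y axis), with the median of 1.68 dashed and the pairs that hold a member in red; the heights of the red lines carry no value. The pairs with *fio1*, *sib1* and *str1* differ by 3.02, 4.60 and 6.50, all right of the median.

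Antisense RNAs overlap most of these genes, and the sources used here do not say whether reads were assigned by strand. The annotation holds 7 non-coding RNAs over *sib1*, 3 over *str1*, 3 over *fep1*, 1 over *fio1*, 1 over *php4* and 0 over *fip1*. All are on the opposite strand, and the table lists 0 of them. None of the 6 genes overlaps another protein-coding gene there. The part of antisense reads in the levels was not tested.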

How the data were processed

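RNA-seq was done on 3 *mkt1Δ* and 3 wild-type libraries (stranded mRNA kit, paired-end). Per the labels and the methods, the authors used cutadapt 1.8.3 for trimming, STAR 2.5 for alignment to ASM294v2, HTSeq 0.6.1 (union mode) for gene counts and edgeR 3.12.0, leaving out genes with under 20 reads. The deposited column used is a mean log2 CPM per gene over all libraries, whose CPM sum to 1000600. The other 3 numeric columns hold the authors' own comparison of the strains (log fold change, p-value and adjusted p-value) and were not used, so the planned strain comparison and every test that needs read counts were not run. Identifiers other than SPNCRNA were taken as mRNAs (5059).

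Names, coding and mRNA lengths, gene order, strands and overlaps between genes came from the RefSeq annotation of ASM294v3, another build than the authors', so none of its coordinates are given and no sequence was read. The planned searches of promoters and proteins were not run, and lengths and overlaps may differ from those of the annotation the reads were counted on. Of 6345 identifiers 6297 matched, and 15 mRNAs had no coding length. Level per coding length is the mean log2 CPM minus log2 of the coding length in kb without the stop codon. The 39 listed iron genes were matched by symbol or, for *sdh4* (described in the table as Tim18) and *cta1*, by synonym. The text names the 6 genes, all listed regulators, and the highest and lowest gene of each other role, and also *shu1* and adjacent genes, which were picked after their values were seen. Members and lists were chosen with earlier results of these data known. Percentiles are shares of mRNAs with a lower level, with 95% Wilson intervals. The counting of lower values was tried on shuffled known ranks, which checks the counting only and not these data. Python 3.11.15, pandas 2.3.3, numpy 2.4.6 and scipy 1.17.1 were used.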

Additional observations from a re-analysis of the deposited data

How the results depend on the processing

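The 6 genes were all below the mRNA median per coding length also with 0.3 kb added to each coding length, with annotated mRNA lengths (an alternative chosen after seeing the data) and among mRNAs with a mean log2 CPM above 0; with no length term 5 were, the exception being *sib1*. By CPM, 5 were below the median in each of 3 backgrounds. The difference between *fip1* and *fio1* was 2.38 log2 with no length term. Single percentiles depended more on the choices: 28 of 36 alternative values lay outside the Wilson interval of the percentile they replace. That interval covers counting of genes only. Some alternatives change the background or the measure itself, so the count is a description and no test of robustness. With ncRNAs in the background, *fio1*, *str1* and *fip1* were above 8.97%, 15.1% and 21.0% of genes. *sib1* was above 6.60% of mRNAs with 0.3 kb added and 7.41% with mRNA lengths. *php4* was above 19.8% with mRNA lengths. No paired analysis was possible because the column used is a mean over all libraries, and leaving out libraries, other normalizations and tests on counts were not run for the same reason. Levels of low genes such as *fio1* carry the most counting error, which the mean does not show.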
